A study of Mus musculus with 3 samples.

Results

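Mitochondrial DNA encodes its own small set of genes, and all 37 genes whose GENCODE M21 symbol starts with mt- are described here, of 55536 annotated genes in the deposited tables. They are 13 protein-coding genes, 2 rRNA genes and 22 tRNA genes. The rule uses the symbol alone, but the choice was made with earlier results of these data known. PolyA-selected RNA was sequenced from CD4 T cells of the effector memory type, alpha-beta helper T cells that have met antigen. The labels give primary cells of 1 adult male mouse aged 5 months, of strain B6.SJL-Ptprca Pepcb/BoyJ, a C57BL/6 line congenic for an allele of the CD45 gene Ptprc. No treatment is labelled, and the sort gate was not given in the sources used here. The 3 libraries are labelled technical replicates 1, 2 and 3 of 1 biosample, and those numbers name them here. They form 1 group, so no conditions were compared. Every SD and every p-value measures spread between libraries of 1 biosample, which may be technical.

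The 13 proteins are all subunits of the respiratory chain. Complexes I, III and IV pump protons across the inner mitochondrial membrane and complex V, the ATP synthase, uses the gradient to make ATP. Most of the other subunits of these complexes, and the whole of complex II, come from nuclear genes. Mitochondrial DNA is transcribed from both strands as long precursors in which tRNAs lie between most of the mRNAs and rRNAs, and processing at the tRNAs releases the separate RNAs. Most of the mature mRNAs and the rRNAs carry short poly(A) tails, whereas the tRNAs end in CCA. Memory T cells as a class have been described as relying on oxidative phosphorylation, which was not measured here for the effector memory type.

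Library 1 stood apart from the others over all genes. An expected count divides each read over all genes it fits, and TPM is the length-scaled level made from it within a library. Libraries 1, 2 and 3 held 17474991, 15303615 and 16882311 expected counts on annotated genes. The median overdispersion, the chi-square statistic per degree of freedom, was 22.4 between libraries 1 and 2, 22.7 between libraries 1 and 3 and 1.42 between libraries 2 and 3. All 7 T cell markers, both CD4 markers (Cd4 and Cd40lg) and all 4 memory markers were detected, which means a TPM of at least 1 in every library. These markers went both ways in library 1. Both CD4 markers were lowest there, with a TPM for Cd4 of 269 in library 1, 541 in library 2 and 523 in library 3. All 4 memory markers were also lowest there. S100a4 had 23.2, 178 and 224 TPM in libraries 1, 2 and 3, while Ccl5 had 615, 965 and 1141 and Il7r had 390, 649 and 648. Of the 7 T cell markers 5 were highest in library 1, among them Trac at 6922, 3647 and 3493 TPM and Lck at 2348, 1110.1 and 1003 TPM. The other 2 were lowest there, Cd3e at 374, 762 and 742 TPM and Trbc2 at 2272, 2301 and 2515 TPM. The part of these marker differences in the mitochondrial values was not tested. Of 10 markers of other cells, Klrb1c and Epcam were detected, with mean TPMs of 8.68 ± 0.82 and 3.44 ± 0.59 (SD, n = 3). Col1a1 had no count in any library, and Cd8a had 0, 2 and 1 counts in libraries 1, 2 and 3. Summed over the 10 markers, their share of counts was 0.00186% in library 1, 0.00196% in library 2 and 0.00181% in library 3.

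Mitochondrially encoded genes took 136559 counts in library 1, against 269637 in library 2 and 338324 in library 3. That was 0.781% of the counts on annotated genes in library 1, with an exact binomial 95% interval of 0.777 to 0.786%. In library 2 it was 1.76% (1.755 to 1.769%) and in library 3 it was 2.00% (1.997 to 2.011%). These intervals cover counting error only. The mean share was 1.52 ± 0.65% (SD, n = 3), with library 1 well below the other libraries. In these bulk RNA libraries, fewer cells of a type, less RNA per cell and technical differences between libraries cannot be told apart. On the TPM scale, which divides by length, the share was 1.57% in library 1, 3.84% in library 2 and 4.28% in library 3. Of the 37 genes 28 were detected, against 21.1% of all annotated genes. They were all 13 protein-coding genes, both rRNAs and 13 tRNAs. A single count passes that TPM limit for a gene as short as a tRNA, and mt-Td passed it with 1, 2 and 1 counts. With at least 10 expected counts required in every library, 17 genes remained.

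By TPM, complex IV, cytochrome c oxidase, gave the highest mitochondrial mRNA, mt-Co3, although by posterior mean TPM mt-Atp6 of complex V stood above it in every library, at 1799.6, 4111 and 4630.3 against 1565, 4062 and 4093. The deposited TPM bounds of these genes overlapped in every library. For mt-Atp6 they were 1441 to 2314, 3384 to 4823 and 4126 to 5074 in libraries 1, 2 and 3. For mt-Co3 they were 1074 to 1945, 3446 to 4734 and 3454 to 4841. mt-Co3 (chrM:8607-9390, + strand), a core subunit, had a TPM of 2603 in library 1, 7124 in library 2 and 7193 in library 3, and it led the 13 mRNAs in every library. mt-Co1 (chrM:5328-6872, + strand), the catalytic subunit that holds the heme-copper site, had a TPM of 512 in library 1, 4178 in library 2 and 3880.05 in library 3. It was therefore the third mRNA in libraries 2 and 3 and the seventh in library 1. mt-Co2 (chrM:7013-7696, + strand), which accepts electrons from cytochrome c, had a TPM of 858 in library 1, 3523 in library 2 and 3668 in library 3. All 3 subunits were lowest in library 1, and their means were 5639.8 ± 2630.3, 2857 ± 2036 and 2683 ± 1582 TPM (SD, n = 3) in the order given.

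Complex V and complex III followed. mt-Atp6 (chrM:7927-8607, + strand), part of the proton channel of the ATP synthase, had a TPM of 2192 in library 1, 5554 in library 2 and 6269 in library 3, second to mt-Co3 in each. mt-Atp8 (chrM:7766-7969, + strand), a small membrane subunit of the same enzyme, had a TPM of 1362 in library 1, 2396 in library 2 and 2540.3 in library 3. mt-Cytb (chrM:14145-15288, + strand), cytochrome b, the only mitochondrially encoded subunit of complex III, had a TPM of 1574 in library 1, 2372 in library 2 and 2448.5 in library 3. Their means were 4672 ± 2177, 2099 ± 643 and 2132 ± 484 TPM (SD, n = 3) in the order given, and all 3 were lowest in library 1. Of the 13 mRNAs mt-Cytb differed least between libraries, with a highest value 1.56 times its lowest, while mt-Nd3 differed most, at 12.3 times.

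The 7 mRNAs of complex I, the NADH dehydrogenase, were mostly lower. mt-Nd1 (chrM:2751-3707, + strand) led them, with a TPM of 701 in library 1, 1628 in library 2 and 1749.8 in library 3. mt-Nd4 (chrM:10167-11544, + strand) had 376, 688 and 801 TPM in libraries 1, 2 and 3, and mt-Nd5 (chrM:11742-13565, + strand) had 226, 519.9 and 614. mt-Nd2 (chrM:3914-4951, + strand) had 250.05, 425 and 533 TPM in libraries 1, 2 and 3. The remaining ones were mt-Nd6, mt-Nd3 and mt-Nd4l, all membrane subunits of the proton-pumping arm like the rest. mt-Nd6 (chrM:13552-14070), the only mRNA gene on the - strand, had 247, 415 and 504 TPM in libraries 1, 2 and 3. mt-Nd3 (chrM:9459-9806, + strand) had 25.8, 229 and 317 TPM, from 83, 608 and 981 counts. mt-Nd4l (chrM:9877-10173, + strand) had 53.7, 224 and 260.1 TPM, from 143, 492 and 668 counts. Each of the 7 was lowest in library 1 and highest in library 3.

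**Figure D1:**
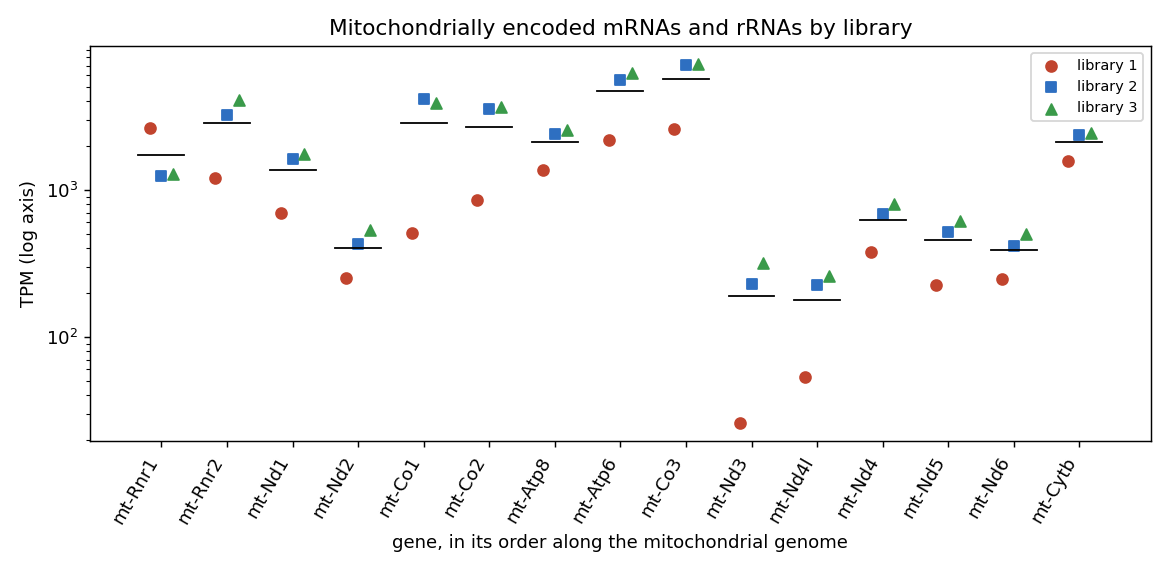
TPM on a log axis for the 13 mRNAs and 2 rRNAs of mitochondrial DNA in their order along the genome, with 1 point per library and a line at the mean of the 3 libraries. Library 1 is the lowest for every gene but mt-Rnr1, where it is the highest at 2628 TPM.

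Ranked by mean TPM, the 13 mRNAs and 2 rRNAs ran mt-Co3, mt-Atp6, mt-Co1, mt-Rnr2, mt-Co2, mt-Cytb, mt-Atp8, mt-Rnr1, mt-Nd1, mt-Nd4, mt-Nd5, mt-Nd2, mt-Nd6, mt-Nd3 and mt-Nd4l. The RNA was polyA-selected, so the order also depends on how much of each RNA carried a tail, which was not measured. Of the 14 pairs of neighbours in that order, 2 differed by more than the larger of their SDs. These were mt-Nd1 above mt-Nd4, at means of 1359 ± 574 and 622 ± 219.8 TPM, and mt-Nd6 above mt-Nd3, at 388 ± 130.4 and 190.6 ± 149 TPM (SD, n = 3 each). In 6 of the 14 pairs the neighbours stood in the same order in every library. The highest mRNA exceeded the lowest 101-fold in library 1, 31.9-fold in library 2 and 27.7-fold in library 3. The lowest was mt-Nd3 in library 1 and mt-Nd4l in libraries 2 and 3.

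The rRNAs of the mitochondrial ribosome went opposite ways. mt-Rnr1 (chrM:70-1024, + strand), the small-subunit 12S rRNA, had a TPM of 2628 in library 1, 1233 in library 2 and 1277 in library 3. mt-Rnr2 (chrM:1094-2675, + strand), the large-subunit 16S rRNA, had a TPM of 1201 in library 1, 3210.3 in library 2 and 4079 in library 3. Their means were 1713 ± 793 and 2829.9 ± 1476 TPM (SD, n = 3), and library 1 was highest for the 12S rRNA and lowest for the 16S rRNA. The ratio of mt-Rnr1 to mt-Rnr2 TPM was 2.19 in library 1, 0.384 in library 2 and 0.313 in library 3. The mt-Tv tRNA gene lies between them, and it had 0, 1 and 3 counts in libraries 1, 2 and 3. mt-Rnr1 was the only tested mitochondrial gene that was higher in library 1 than in both other libraries. The part of polyA selection in these rRNA values was not tested.

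The tRNAs carried few reads. Together they took 186, 835 and 1379 counts in libraries 1, 2 and 3. That is 0.136, 0.310 and 0.408% of the mitochondrial counts. Their annotated lengths of 59 to 75 bases leave effective lengths of 10 to 26 bases, the number of start positions for a read of 50 bases. A single count on mt-Ts1 was therefore worth 4.65 TPM in library 1, and tRNA levels are given as counts here. Of the 22 tRNAs, 17 had totals of 1 to 19 counts over the 3 libraries, and 9 had no count in at least 1 library. Libraries 1, 2 and 3 had 8, 2 and 1 tRNAs without a count.

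The serine tRNA gene mt-Ts1 held most of those reads, with 155, 722 and 1195 counts in libraries 1, 2 and 3. The glutamate tRNA gene mt-Te had 12, 48 and 65 counts, and the leucine tRNA gene mt-Tl1 had 4, 9 and 17. The cysteine tRNA gene mt-Tc had 0, 8 and 16 counts, where 0 counts in library 1 allows up to 3 counts, or 16.4 TPM, and the glutamine tRNA gene mt-Tq had 3, 4 and 13. All of these were lowest in library 1 and highest in library 3. Both leading tRNA genes are on the - strand, beside an mRNA gene of the + strand in the case of mt-Ts1 and next to mt-Nd6 in the case of mt-Te. They are shown here because the other strand of the same bases is also transcribed, in mm10 from GENCODE M21 transcripts, read 5′ to 3′ on the - strand. Capitals mark the bases that lie opposite the end of mt-Co1.
mt-Ts1 (chrM:6870-6938, - strand): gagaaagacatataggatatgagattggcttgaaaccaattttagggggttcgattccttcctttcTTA
mt-Te (chrM:14071-14139, - strand): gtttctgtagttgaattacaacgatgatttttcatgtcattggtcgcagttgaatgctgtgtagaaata

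In human cells the mature MT-CO1 mRNA is known to run on past its stop codon into a stretch complementary to this serine tRNA. Strand use in counting was not given in the sources used here, so reads from mt-Ts1 and from the opposite strand of the same bases cannot be told apart. The ratio of mt-Ts1 to mt-Co1 TPM was 1.41 in library 1, 0.974 in library 2 and 1.49 in library 3. The part of mt-Co1 transcripts in the mt-Ts1 counts was not tested. The 9 genes on the - strand, 8 tRNAs and mt-Nd6, took 1.04, 0.938 and 1.12% of mitochondrial counts in libraries 1, 2 and 3.

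Mitochondrial genes lie end to end from base 1 to base 15422 of chrM, and 9 pairs of neighbours overlap, 3 of them on opposite strands. The longest overlap is the 43 bases that close mt-Atp8 and open mt-Atp6 (chrM:7927-7969), which are translated from 1 shared mRNA in different frames. mt-Nd4l and mt-Nd4, also made from a shared mRNA, overlap by 7 bases. The sequences show both junctions on the + strand of mm10, from GENCODE M21 transcripts, with capitals for the bases that the 2 genes of a pair share.
mt-Atp8 end (chrM:7910-7969, + strand): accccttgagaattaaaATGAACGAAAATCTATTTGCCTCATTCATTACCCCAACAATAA
mt-Atp6 start (chrM:7927-7986, + strand): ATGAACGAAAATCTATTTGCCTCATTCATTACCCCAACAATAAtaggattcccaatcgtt
mt-Nd4l end (chrM:10134-10173, + strand): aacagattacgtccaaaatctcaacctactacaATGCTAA

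Genes that share an mRNA did not have equal levels in these tables. The ratio of mt-Atp8 to mt-Atp6 TPM was 0.621 in library 1, 0.431 in library 2 and 0.405 in library 3. For mt-Nd4l over mt-Nd4 it was 0.143 in library 1, 0.325 in library 2 and 0.325 in library 3. No stretch of 50 bases was common to any pair of mitochondrial genes, so a read of that length that lay wholly in one of them could not have come from another of them. Reads of mt-Atp6 are also split with near-identical nuclear copies, described below, while mt-Atp8 shares no such stretch with an annotated nuclear gene. By expected counts mt-Atp6 was given 50.2, 70.5 and 72.3% of the reads summed with its copies in libraries 1, 2 and 3. For mt-Nd4l and mt-Nd4, 98.8 and 62.2% of the stretches occur in nuclear copies. The part of this split in the ratios was not tested. mt-Nd5 and mt-Nd6 overlap by 14 bases on opposite strands, and the ratio of mt-Nd6 to mt-Nd5 TPM was 1.09, 0.798 and 0.821 in libraries 1, 2 and 3.

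Counts of the mitochondrial genes differed between the libraries by more than counting error. Of the 37 genes, 18 had at least 30 counts in total and were tested with Pearson's chi-square test of homogeneity, with Benjamini-Hochberg adjustment over all 13177 genes tested. All 18 were called at an adjusted p below 0.05, but so were 75.8% of all genes tested and 90.4% of the 6801 genes with at least 1000 counts. The chi-square statistic was 44225 for mt-Co1, 24939.7 for mt-Rnr2 and 7309.6 for mt-Rnr1. The smallest was 8.61 for mt-Tl1, with an adjusted p of 0.0189. The other 19 genes, all tRNAs, had too few counts to be tested.

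The direction was shared by nearly all of them. Of the 17 genes tested between libraries 1 and 2, mt-Rnr1 was higher in library 1 and 16 were lower, where 34.1% of all genes tested were called higher and 39.4% lower. Between libraries 1 and 3, mt-Rnr1 was again higher in library 1 and the other 16 were lower, where 34.1% of all genes were called higher and 40.5% lower. Between libraries 2 and 3, mt-Co1 was called higher in library 2, at an adjusted p of 0.0211, and 15 genes were called lower. mt-Te was not called, at an adjusted p of 0.518. In that pair 9.16% of all genes tested were called higher in library 2 and 7.52% lower, and among genes with at least 1000 counts 9.91% were called lower.

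All 13 mRNAs had their lowest TPM in library 1, as did 47.8% of the 11694 detected genes. The TPM of 12 of the 13 was ordered library 1 below library 2 below library 3, against 16.9% of detected genes, and mt-Co1 was the exception. The median log2 ratio of TPM over the 13 was -1.22 for library 1 over library 2, with a range of -3.15 to -0.59. Over all detected genes that median was -0.09. For library 1 over library 3 the median of the 13 was -1.44, with a range of -3.62 to -0.64, against -0.03 over all detected genes. For library 2 over library 3 it was -0.17, with a range of -0.47 to 0.11, against 0.08.

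**Figure D2:**
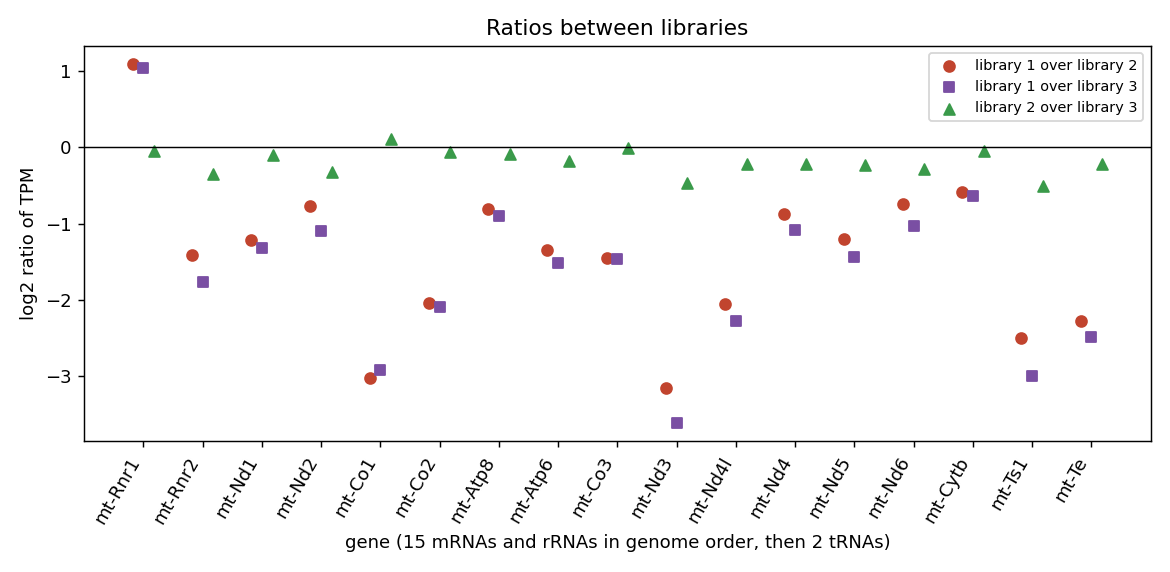
Log2 ratio of TPM between each pair of libraries for the 13 mRNAs, 2 rRNAs and the tRNAs mt-Ts1 and mt-Te, with a line at 0. Library 1 over either other library is below 0 for every gene shown but mt-Rnr1, while library 2 over library 3 stays between -0.50 (mt-Ts1) and 0.11 (mt-Co1).

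The composition of the mitochondrial reads also moved. mRNAs made up 66.6, 79.8 and 76.9% of mitochondrial counts in libraries 1, 2 and 3, and rRNAs 33.2, 19.9 and 22.7%. These are shares of reads from polyA-selected RNA, and the part of that selection in them was not tested. mt-Rnr1 alone held 18.7% in library 1, 3.68% in library 2 and 3.54% in library 3. mt-Co1 held 6.03% in library 1, 20.6% in library 2 and 17.8% in library 3, so that complex IV mRNAs came to 25.4, 45.2 and 41.1%. mt-Cytb held 13.6% in library 1, 8.55% in library 2 and 8.21% in library 3. Complex I mRNAs held 15.1, 13.3 and 14.3%, and complex V mRNAs 12.6, 12.8 and 13.3%, in libraries 1, 2 and 3. Values for complexes IV and V depend on how reads were split with near-identical nuclear copies, described below. By expected counts mt-Atp6 was given 50.2, 70.5 and 72.3% of the reads summed with its copies in libraries 1, 2 and 3. Shares by complex with the copies added were not worked out.

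Over all 3 libraries the spread of these genes was above that of most genes. In an edgeR fit with an intercept only, the median coefficient of variation over the 17 mitochondrial genes fitted was 0.423, against 0.292 over all 12095 genes fitted, and all 17 lay above that median. It was 0.729 for mt-Nd3 and 0.668 for mt-Co1, higher than those of 99.8% and 99.5% of all genes fitted. mt-Cytb, at 0.302, was above 55.8% of them. Without library 1 the median over the 17 genes was 0.0767, against 0.0775 over all genes fitted, and 7 of the 17 lay above it. Without library 2 it was 0.461 against 0.398, with all 17 above, and without library 3 it was 0.407 against 0.403, with 10 of 17 above.

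Several of the mitochondrial genes have near-identical nuclear copies, stretches of mitochondrial DNA that were inserted into chromosomes. Of the annotated nuclear genes, 15 share at least 1 stretch of 50 bases with a total of 10 mitochondrial genes. Of these, 7 lie in a row within chr1:24611535-24616197, all on the - strand and in the same order as on chrM. The share of a gene's 50-base stretches that also occur in a nuclear copy was 100% for mt-Co2, 99.9% for mt-Co3, 99.5% for mt-Atp6, 98.8% for mt-Nd4l and 98.0% for mt-Nd3. It was 62.2% for mt-Nd4, 51.1% for mt-Co1, 8.19% for mt-Nd2, 7.61% for mt-Nd5 and 1.04% for mt-Rnr2. It was 0 for mt-Cytb, mt-Nd1, mt-Nd6, mt-Atp8 and mt-Rnr1.

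The chromosome 1 copies match their mitochondrial genes base for base over long runs. Gm28661 matches mt-Co2 with 0 differences over 681 bases, Gm10925 matches mt-Atp6 with 0 over 678 and Gm28437 matches mt-Co3 with 0 over 783. Gm28439 (876 bases of mt-Nd4) and Gm10222 (294 bases of mt-Nd4l) also have 0 differences. Gm28438 has 1 over the 345 bases it shares with mt-Nd3, and Gm29216 has 6 over 492 bases of mt-Co1. The 3 gene ends below show how few bases of mt-Co2, mt-Atp6 and mt-Co3 lie past the annotated end of their copies. Capitals mark those bases (mm10, + strand, GENCODE M21 transcripts), and whether chromosome 1 carries them beyond the annotated copy was not analysed here.
mt-Co2 end (chrM:7647-7696, + strand): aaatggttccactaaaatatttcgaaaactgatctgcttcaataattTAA
mt-Atp6 end (chrM:8558-8607, + strand): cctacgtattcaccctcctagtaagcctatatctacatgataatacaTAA
mt-Co3 end (chrM:9341-9390, + strand): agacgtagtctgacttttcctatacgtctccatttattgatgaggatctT

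Within the annotated copy, Gm29216 differs from mt-Co1 only near its start. Counted from base 1 of mt-Co1, with the mitochondrial base first and the Gm29216 base last, the differences are T1056A, C1057T, A1059G, A1060G, C1062A and A1066T. They stand in capitals in the aligned stretches.
mt-Co1 stretch (chrM:6381-6420, + strand): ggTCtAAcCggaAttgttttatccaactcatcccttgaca
Gm29216 start (chr1:24616158-24616197, - strand): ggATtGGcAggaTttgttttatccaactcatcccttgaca

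The authors' tables split reads between these genes and their copies. For every 100 mitochondrial counts, all copies together were given 15.8, 12.8 and 13.1 expected counts in libraries 1, 2 and 3. By posterior mean counts it was 23.9, 23.8 and 24.7. Gm29216 was given 4060.3, 17498 and 22809 counts in libraries 1, 2 and 3, and Gm10925 was given 14741, 13019 and 15744. Gm28437 was given 2732, 2959 and 3688 counts and Gm28661 9.3, 1042 and 1904, in libraries 1, 2 and 3. Gm13340, a copy of mt-Co1 on chromosome 2, was given 4.08, 26.2 and 33.2. The chromosome 1 copies of mt-Nd3, mt-Nd4l and mt-Nd4 were listed at 0 expected counts in all 3 libraries, while the posterior mean counts of the mt-Nd3 copy Gm28438 were 21.1, 86.4 and 159. In counts, not scaled by library size, Gm10925 was lowest in library 2, the library with the fewest counts, and the other 4 were lowest in library 1. By TPM Gm10925 had 2180, 2333 and 2417 in libraries 1, 2 and 3. On that scale all 5 were lowest in library 1, as their mitochondrial genes were, but the values of Gm10925 lay close together. Its posterior mean counts were 15642 ± 1936 (posterior SD) in library 1 and 17074 ± 2406 in library 2.

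The split depended on the estimate, while the sum of a gene and its copies did not. mt-Atp6 and its copies summed to 29627, 44163 and 56781 counts in libraries 1, 2 and 3, the same whole numbers under expected counts and under the posterior mean counts of the same tables. mt-Atp6 was given 50.2% of that sum in library 1, 70.5% in library 2 and 72.3% in library 3 by expected counts, and 47.2, 61.3 and 61.4% by posterior means. mt-Co3 was given 88.3, 94.0 and 93.7% of its sum by expected counts and 60.7, 63.0 and 61.3% by posterior means. mt-Co2 was given 99.8, 95.004 and 92.7% by expected counts and 72.2, 73.9 and 68.6% by posterior means. For mt-Co1 the 2 estimates differed by less than 1 count in 1000, at 67.0, 76.0 and 72.5% of its sum by expected counts.

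**Figure D3:**
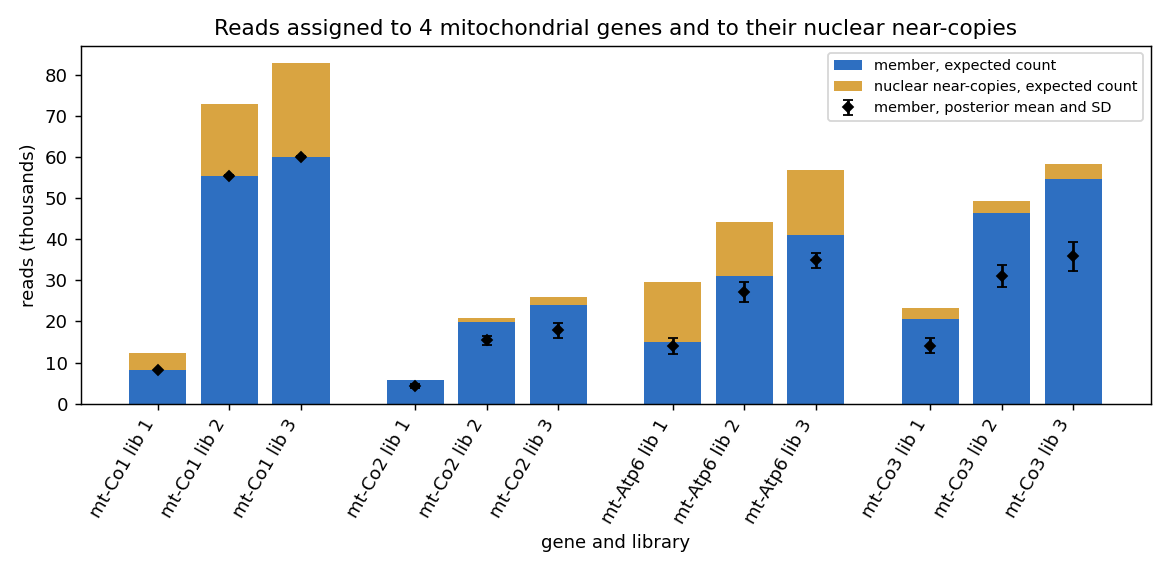
Reads (axis in units of 1000) given to mt-Co1, mt-Co2, mt-Atp6 and mt-Co3 (blue bars) and to their nuclear near-copies (yellow, stacked on top) in each library, with the posterior mean and SD of the mitochondrial gene as black points. The points sit inside the blue bars for mt-Co2, mt-Atp6 and mt-Co3 and at their top for mt-Co1.

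With copies added, the library 1 to 2 log2 ratio stayed below 0 for the 4 genes whose chromosome 1 copies had nonzero expected counts. Against library 2, library 1 had a log2 ratio of mt-Atp6 counts, scaled by library size, of -1.26 for the gene alone and -0.77 with its copies added. For mt-Co1 the same ratio was -2.94 alone and -2.76 summed, for mt-Co2 -1.95 and -2.02, and for mt-Co3 -1.37 and -1.28. The call of mt-Co1 as higher in library 2 than in library 3 rested on the split, with a log2 ratio of 0.025 alone and -0.043 summed. By posterior mean TPM mt-Atp6 led the order in place of mt-Co3, with means of 3514 and 3239.8, and 8 of 15 genes kept their rank. The deposited TPM bounds of mt-Atp6 and mt-Co3 overlapped in every library. Across the 13 mRNAs, Spearman's rho between the share of stretches held in nuclear copies and the log2 TPM ratio was -0.69 for library 1 over library 2, -0.70 for library 1 over library 3 and 0.13 for library 2 over library 3. These points share libraries and neighbouring genes, so the values are descriptions across 13 genes.

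The authors' second gene table, whole-number counts on GENCODE M4 annotation, lists the 13 mRNAs with values far from those of the M21 table. mt-Co2, mt-Atp8, mt-Atp6, mt-Co3 and mt-Nd4l were listed at 0 in all 3 libraries, and mt-Nd3 at 2, 10 and 9 counts. mt-Cytb had 2114, 2146 and 2176 counts in that table, or 1.85, 1.88 and 1.90 per base of the gene, beside 16.2, 20.1 and 24.3 expected counts per base in the M21 table. mt-Nd1 had 1.72, 1.84 and 1.89 M4 counts per base, mt-Nd6 1.18, 1.46 and 1.59, and mt-Nd5 1.02, 1.47 and 1.57, in libraries 1, 2 and 3. mt-Co1 had 0.757, 0.902 and 0.914, beside 5.33, 35.9 and 38.9 in the M21 table. The highest M4 count per base of any mRNA in any library was the 1.90 of mt-Cytb in library 3, while by M4 counts mt-Nd5 was above it, at 2857 in that library against 2176. Over all genes compared, the median M4 count was 0.510, 0.524 and 0.508 of the M21 count in libraries 1, 2 and 3. The M4 total was 30.3, 34.7 and 33.1% of the M21 total of the same genes. Mitochondrial mRNAs took 0.182, 0.219 and 0.219% of M4 counts. How the M4 table treats reads with several matches, or repeated reads, was not given in the sources used here.

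**Figure D4:**
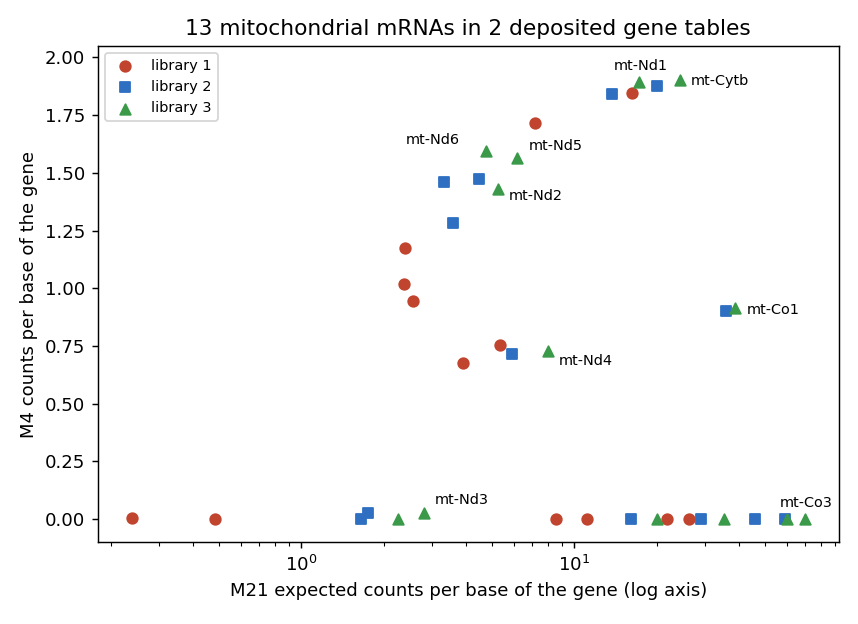
M4 counts per base against M21 expected counts per base (log axis) for the 13 mitochondrial mRNAs in each library, with library 3 labelled for 9 of them. Genes at the bottom are listed at or near 0 in the M4 table although they reach 69.8 per base in the M21 table, and the highest M4 count per base is 1.90 (mt-Cytb).

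mt-Atp8 was at 0 in the M4 table although none of its 50-base stretches occurs in an annotated nuclear gene. Between the chromosome 1 copies of mt-Atp6 and mt-Co2 lies a gap of 233 bases without an annotated gene. The corresponding distance on chrM, which holds mt-Tk and the first part of mt-Atp8, is 230 bases. The sequence of that gap was not analysed here.

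Nuclear genes supply the rest of the respiratory chain, and 76 of 81 nuclear subunit genes were detected. The 13 mitochondrially encoded genes had a median TPM of 512 in library 1, 1628 in library 2 and 1749.8 in library 3, and the nuclear subunits 166, 108 and 123. The difference in median log2(TPM + 1) was 1.62 in library 1, 3.90 in library 2 and 3.82 in library 3. In complex IV the 3 mitochondrial genes had medians of 858, 4178 and 3880.05 TPM, against 191, 172 and 175 for the 15 nuclear ones. In complex I the 7 mitochondrial genes had medians of 247, 425 and 533 TPM, against 129, 85.6 and 89.7 for 38 nuclear ones. Those nuclear genes were placed in complex I by an Nduf symbol alone, Ndufa4 and Ndufa4l2 among them. The difference had the same direction in complexes III and V in every library.

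**Figure D5:**
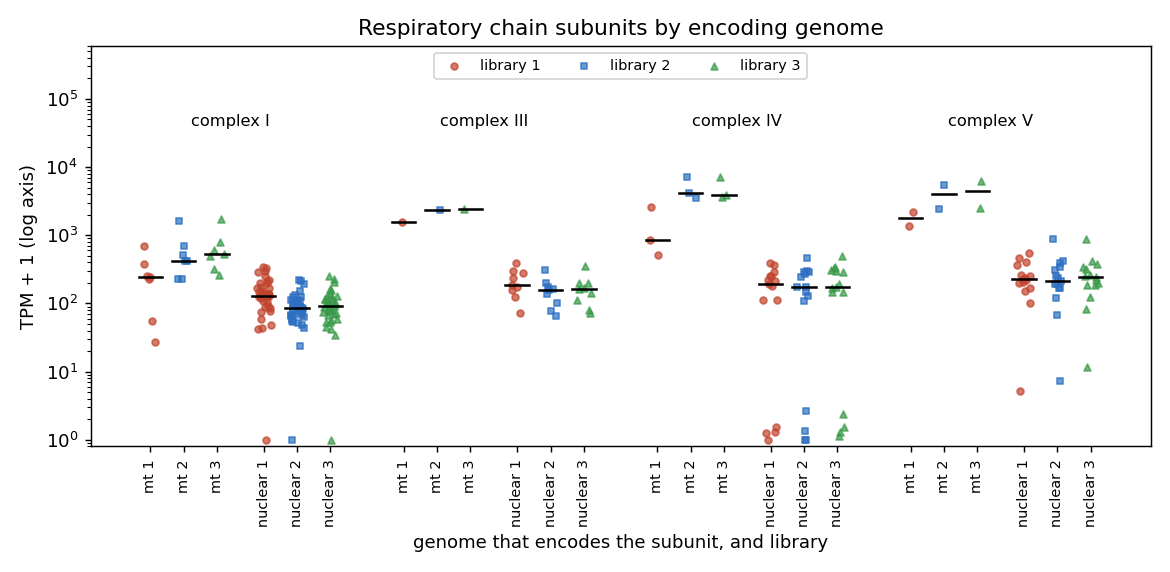
TPM + 1 on a log axis for respiratory chain subunits of complexes I, III, IV and V, with mitochondrially encoded genes (mt) left of nuclear ones and 1 point per gene in each library. Lines mark medians. The mitochondrial median exceeds the nuclear one in each complex and library, least in complex I of library 1 (247 against 129 TPM).

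Levels of the nuclear subunits went both ways in library 1. Of the 76 tested, 71 were called, 47 with their highest and 14 with their lowest level in library 1. Over all genes, 75.8% of those tested were called, and 42.6% of those called were highest and 52.4% lowest in library 1. Atp5b, the catalytic beta subunit of the ATP synthase, was the highest of them with a TPM of 541 in library 1, 894 in library 2 and 867 in library 3. Cox4i1, a regulatory subunit of complex IV, had 359.6, 469 and 493 TPM, and Atp5h, a stalk subunit of the ATP synthase, had 459, 389 and 419. Ndufa4l2, Cox4i2, Cox6a2, Cox6b2 and Cox7a1, most of which are isoforms used in other tissues, were not detected. Between libraries 2 and 3, 0 of 76 were called higher in library 2 and 38 lower, where 9.16% of all genes tested were called higher and 7.52% lower. That direction was also the one of 12 of the 13 mitochondrial mRNAs.

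The machinery that expresses mitochondrial DNA was present throughout. All 78 mitoribosomal protein genes were detected, with a median mean TPM of 42.4, led by Mrpl33, Mrpl54 and Mrps14. Of these, 68 were called, 58 with their highest and 10 with their lowest level in library 1, beside the shares over all genes given for the nuclear subunits (75.8% called, and of these 42.6% highest and 52.4% lowest in library 1). Mrpl33, a protein of the large mitoribosomal subunit, had a TPM of 321 in library 1, 139 in library 2 and 150.3 in library 3. All 43 genes of mitochondrial replication, transcription, RNA processing and translation were detected. Of those, 28 were called, 14 highest and 11 lowest in library 1, which is beside the same shares over all genes. Rexo2, an oligoribonuclease that degrades short RNA in mitochondria, had a TPM of 300.03 in library 1, 139 in library 2 and 143 in library 3. Polg2 and Polg, the accessory and catalytic subunits of the mitochondrial DNA polymerase, had 120.05, 137 and 128 TPM and 47.7, 105 and 87.3 TPM in libraries 1, 2 and 3. What sets library 1 apart was not tested.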

How the data were processed

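Expected counts, TPM and FPKM per gene were deposited by the authors on mm10 with GENCODE M21, per the file headers and deposited notes, and a table of whole-number counts was deposited by the authors on GENCODE M4. Aligner, quantifier and strand were not given in the sources used here. In the M21 tables, effective length is length less the value that 50-base reads give. Rows with numeric IDs and spike-ins, 0.226 to 0.304% of counts, were left out, and all 55536 Ensembl IDs matched the annotation.

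Expected counts were rounded to whole numbers. Genes with at least 30 counts were tested with Pearson's chi-square test of homogeneity against library size. Benjamini-Hochberg adjustment covered all genes tested, with 0.05 as threshold. The test was also run on simulated counts, and those results are not given here. They do not show that the threshold holds for these libraries, where the chi-square statistic per degree of freedom had a median of 13.8. Library spread came from edgeR 4.0.16 (R 4.3.3; TMM, filterByExpr, intercept only). Python 3.11.15, scipy 1.17.1 and Biopython 1.88 were used. A count of 0 allows up to 3 counts, by counting error only, since no molecular identifiers are given. Nuclear copies were to be sought by alignment at 90% identity over 100 bases. Exact 50-base stretches shared with GENCODE transcripts were used instead, with pairwise alignment for differences, because they show which reads cannot be told apart.

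All mRNA and rRNA genes and the 5 tRNAs with most counts are named, and of other lists the 3 highest and undetected members. Other nuclear genes named are Cd3e, Cd4, Cd8a, Col1a1, Klrb1c and Epcam, as markers. Members and lists were chosen with earlier results of these data known. The nuclear gene lists were described by counts and medians, with no test of a list as a whole. Alternatives covered scaling, count minimum, unit, detection limit and leaving out each library.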

Additional observations from a re-analysis of the deposited data

How the results depend on the processing

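The mean share of mitochondrial counts was 1.52% over all 37 genes, but 3.23% as a share of TPM, and 1.72% with nuclear copies added. Leaving out each library in turn gave 1.27 to 1.88%. In the M4 counts, where only the 13 mRNAs are listed, the mean share was 0.207%. By M21 expected counts those 13 mRNAs took 0.521, 1.41 and 1.54% in libraries 1, 2 and 3. Detection held for 28 genes at a TPM of 1, for 17 with at least 10 expected counts in every library, and for 28 to 35 when a library was left out. Of 18 genes tested 18 were called as varying, beside 75.8% of all genes. With scaling by the median overdispersion 16 of 18 were called, beside 27.1%, and with a minimum of 1 count 22 of 37, beside 35.8%. With a minimum of 10 counts 23 of 25 were called, beside 66.9%, and at an adjusted p below 0.01 it was 17 of 18, beside 68.4%. Other scalings called 18. Without library 1, 16 of 17 were called, beside 16.7%, and without library 2 or 3, 17 of 17, beside 74.6 and 73.5%. Without each library the median coefficient of variation of 0.423 ranged over 0.0767 (without library 1) to 0.461. The median TPM over mRNAs ranged over 1164 to 1689, and the mitochondrial minus nuclear difference in log2(TPM + 1), 3.11 on average, over 2.72 to 3.86. Adding nuclear copies, an alternative chosen after seeing the data, turned the mt-Co1 log2 ratio of library 2 over library 3 to -0.043 (0.025 alone), and moved mt-Atp6 to -0.77 for library 1 over library 2 (-1.26 alone). No paired analysis was possible because the libraries form 1 group. Low counts limit 19 tRNAs, which had under 30 counts and were not tested. The part of depth, short gene length and polyA selection in those low counts was not tested. The cause of the difference of library 1 was not tested either.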
